A study of Mus musculus with 12 samples.

Results

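The circadian clock genes of the mouse adrenal gland were examined as a set of 10, namely Arntl, Clock, Per1, Per2, Per3, Cry1, Cry2, Nr1d1, Nr1d2 and Dbp. They were taken by symbol from the platform's annotation, and each had 1 probe, among 18617 genes named on the array. All 10 were measured on all 12 arrays and passed the filter for testing. The arrays carried adrenal RNA of transgenic mice of line #56, which bear extra copies of Ftz-F1 (Nr5a1, the gene of the nuclear receptor SF-1) from a transgene labelled YAC, each set against a wild-type (WT) littermate matched for sex and age. By the design text each comparison is of single mice, and mice heterozygous or homozygous for the transgene were used. There were 3 pairs of 4-month-old mice with a transgene copy number of 2 (pairs 1 and 3 male, pair 5 female) and 3 pairs of 10-day-old mice with a copy number of 1 (pairs 11 and 13 male, pair 15 female). Pairs are named by the number of the transgenic mouse. Age and copy number change together and cannot be told apart, all transgenic mice come from the same line, and neither the labels nor the design text give the hour at which glands were taken.

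The clock of mammalian cells is a feedback loop of transcription. ARNTL (BMAL1) and CLOCK bind E-boxes as a heterodimer and activate the Per, Cry and Nr1d genes, PER and CRY proteins then repress this activity, and the NR1D proteins (REV-ERB) repress Arntl. Dbp, an output gene under direct E-box control, peaks at about the opposite time of day from Arntl in peripheral tissues of the mouse. A difference in clock phase between 2 mice can thus move Dbp and Arntl in opposite directions. How far it does so depends on the hour of sampling, which is not given. The adrenal gland holds such a clock, which is known to gate the daily release of glucocorticoids.

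All values are log2 ratios of the transgenic and the wild-type sample in the sign in which they were deposited, after correction of a dye trend. Nothing in the labels says which of the 2 mice is the numerator, so a negative value stands for a lower level in the transgenic mouse if the transgenic mouse is the numerator and for a higher level if the WT mouse is. Each pair was measured on 2 arrays with exchanged dyes, whose mean is the pair value, and the pair is the replicate. With the mean of each dye orientation taken off, r between dye-swap arrays of the same pair was 0.23 to 0.66, against -0.28 to 0.12 for arrays of different pairs, so both columns of a pair ran the same way. Empty spots made up 4.30% to 6.59% of an array, and precision is limited by having 6 pairs, 3 per age. Nr5a1 itself, a cortical and transgene-encoded transcript, lay between -0.79 and 0.11 in the 6 pairs, and no direction was taken from it. The signals of the cortex markers lay at the 92.6 (Cyp11b2) to 99.1 (Mc2r) percentiles of all probes. The chromaffin markers lay at the 70.8 (Ddc) to 99.97 (Chga) percentiles, with Pnmt at 91.7, while the kidney marker Umod was at 70.9. Markers of hepatocytes, adipocytes, lymphocytes, macrophages and erythroid cells ran from the 2.98 (Cd79a) to the 99.955 (Hba-a1) percentiles. Spot signal alone thus does not show which tissue was sampled.

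Promoter sequences from RefSeq (GRCm38.p6) were available for 9 of the 10 members, all but Per2. They are shown for Per1 and Cry1, the members in whose 250 bases before the gene start the E-box letters CACGTG occur, and for Dbp, the member with the largest ratios. The motif is its own reverse complement, so both strands are covered, and capitals mark it. It occurs in 6.02% of the 32851 promoter windows of this length. The windows lie at chr11:69098699-69098948 on the plus strand for Per1 (the first of 2 annotated starts), chr10:85185055-85185304 on the minus strand for Cry1 and chr7:45704997-45705246 on the plus strand for Dbp.
Per1: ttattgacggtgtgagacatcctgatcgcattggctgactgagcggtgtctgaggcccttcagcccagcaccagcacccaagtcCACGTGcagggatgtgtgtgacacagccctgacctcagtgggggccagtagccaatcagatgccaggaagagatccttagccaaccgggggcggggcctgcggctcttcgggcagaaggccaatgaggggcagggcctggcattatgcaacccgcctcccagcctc
Cry1: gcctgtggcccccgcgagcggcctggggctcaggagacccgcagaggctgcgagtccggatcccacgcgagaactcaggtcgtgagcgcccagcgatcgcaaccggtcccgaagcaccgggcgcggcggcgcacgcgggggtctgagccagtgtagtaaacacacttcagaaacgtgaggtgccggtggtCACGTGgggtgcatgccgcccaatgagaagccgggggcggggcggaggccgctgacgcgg
Dbp: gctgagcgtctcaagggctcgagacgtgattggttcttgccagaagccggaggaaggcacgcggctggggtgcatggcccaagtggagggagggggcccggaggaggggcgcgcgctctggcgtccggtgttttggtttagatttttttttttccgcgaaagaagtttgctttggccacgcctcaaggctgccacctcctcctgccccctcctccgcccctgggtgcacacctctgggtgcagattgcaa
The E-box starts 166 bases before the annotated start of Per1 and 60 bases before that of Cry1. The letters are not in the 250 bases shown for Dbp, in the window of the other Per1 start, or in those of Arntl, Clock, Per3, Cry2, Nr1d1 and Nr1d2.

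No clock gene passed the test in any group of pairs, while Dbp and Per1 differed between the mice of single pairs by more than their dye-swap arrays did. Dbp was far below 0 in 3 pairs and near 0 in the other 3, and Per1 was positive in some pairs and negative in others. Per2 and Cry1 varied less, and the remaining 6 members, Arntl among them, had a range between pairs below the largest gap between the 2 arrays of a pair. Such a gap also holds any fixed offset between the dye orientations, which the pair mean takes off. The mean gap, Cy5 array minus Cy3 array, was 0.78 for Arntl, 0.52 for Nr1d1 and 0.45 for Cry2. It was 0.36 for Clock, 0.12 for Per3 and -0.20 for Nr1d2.

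Dbp encodes a transcription factor of the PAR bZIP family that carries clock timing to genes with D-boxes. At 4 months its log2 ratios were -1.62 in pair 1, 0.04 in pair 3 and -0.96 in pair 5. At 10 days they were -0.04 in pair 11, -0.90 in pair 13 and 0.00 in pair 15. The negative pairs thus came from both ages and both sexes, and the mice of pairs 1, 5 and 13 differed 3.07-fold, 1.95-fold and 1.87-fold in Dbp level. Both arrays gave the same picture, with -1.48 and -1.76 in pair 1, -0.83 and -1.09 in pair 5 and -0.93 and -0.87 in pair 13. The gap between the arrays of a pair was at most 0.28, against a range of 1.66 between pairs. The Dbp spot stood at the 98.0 percentile of signal and was not near the limit of the scanner. Under 4 ways of scaling, Dbp stayed between -1.84 and -0.72 in pairs 1, 5 and 13, and between -0.31 and 0.55 in pairs 3, 11 and 15.

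The mean of Dbp was -0.85 ± 0.83 at 4 months and -0.31 ± 0.51 at 10 days (SD, n = 3 pairs each). The SD is about as large as the mean at 4 months, and the 2 age groups overlap. Over all 6 pairs the mean was -0.58 (SE 0.21, 95% interval -1.07 to -0.09, negative in 4 of 6 pairs), with an adjusted p of 0.265 in limma. At 4 months limma gave an adjusted p of 0.338 and at 10 days 0.825. The difference between the ages was -0.53 (SE 0.42, adjusted p = 0.933 in limma), with an interval of -1.51 to 0.44 that spans 0.

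Marker lists of other cells stood apart in several pairs, among them the 3 in which Dbp was near 0. In pair 3 the lymphocyte markers had a median of -1.98, with 6 of 7 measured at -0.5 or below on agreeing arrays, against medians of -0.25 to -0.02 in the other pairs. In pair 11 the hepatocyte markers had a median of 1.46, with 5 of 7 at 0.5 or above, against 0.00 to 0.33 elsewhere. In pair 15 the adipocyte markers had a median of 2.08, with 7 of 7 at 0.5 or above, against -0.39 to 0.43 elsewhere. The macrophage markers were at -0.5 or below in 6 of 6 cases in pair 3, with a median of -1.80, and between -0.69 and 0.51 elsewhere. The 3 erythroid markers had medians of -1.82 in pair 13 and 1.26 in pair 15, and lay between -0.77 and 0.29 elsewhere, so the pairs with a negative Dbp were not free of such shifts. The gland's own markers also differed by pair. The adrenal cortex markers had medians from -0.57 in pair 11, with 4 of 7 at -0.5 or below, to 0.31 in pair 3. Among these 7 are Nr5a1, which the transgene also encodes, and Star, with arrays up to 5.95 apart. The chromaffin markers had medians from -0.10 in pair 11 to 0.81 in pair 15, with 4 of 6 at 0.5 or above in pair 15. Fewer cells of a type and less RNA per cell cannot be told apart in such whole-gland samples, and the part of these cells in the Dbp values was not tested.

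**Figure D1:**
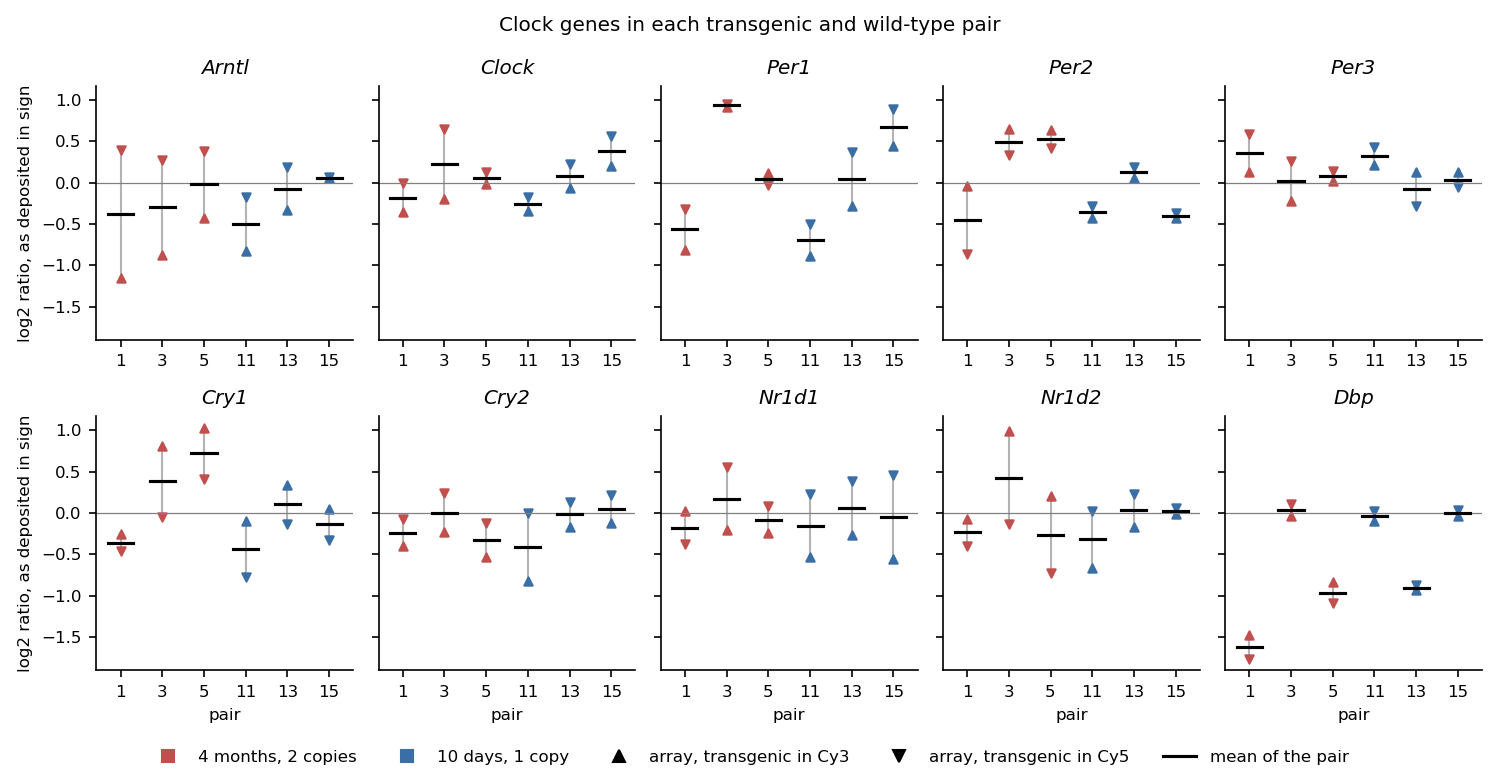
Log2 ratios of the 10 clock genes in the sign in which they were deposited, by pair, with the 4-month pairs 1, 3 and 5 left of the 10-day pairs 11, 13 and 15. Triangles are the 2 dye-swap arrays of a pair and black bars their mean; the Dbp arrays of a pair lie within 0.28 of each other, while those of Arntl lie up to 1.55 apart.

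The period genes encode the repressors whose protein build-up closes the loop, and Per1 also responds within minutes to signalling through CREB and the glucocorticoid receptor. Per1 was at -0.56, 0.94 and 0.04 in the 4-month pairs 1, 3 and 5. It was at -0.69, 0.04 and 0.67 in the 10-day pairs 11, 13 and 15. It was thus high in pairs 3 and 15 and low in pairs 1 and 11, with no order by age. In these 4 pairs both arrays had the same sign, for example 0.92 and 0.96 in pair 3, and the mice differed 1.48-fold to 1.91-fold in Per1 level. Under 4 ways of scaling, Per1 stayed between -0.87 and -0.21 in pairs 1 and 11, where the values as deposited of -0.21 and -0.41 fell short of 0.5 in size, and between 0.63 and 1.32 in pairs 3 and 15. The group means were 0.14 ± 0.75 at 4 months and 0.01 ± 0.68 at 10 days (SD, n = 3 pairs each), with adjusted p = 0.879 and 0.997 in limma. The sign of both means turned with single pairs: at 4 months it was 0.49 without pair 1 and -0.26 without pair 3, and at 10 days 0.36 without pair 11 and -0.32 without pair 15.

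Per2 was at -0.45, 0.49 and 0.52 in pairs 1, 3 and 5, and at -0.35, 0.12 and -0.40 in pairs 11, 13 and 15. It had the same sign on both arrays in 6 of 6 pairs, and no other clock gene did, though its arrays in pair 1 were -0.04 and -0.86. Per2 was positive with Per1 in pair 3 and negative with it in pairs 1 and 11, but the genes had opposite signs in pair 15, at -0.40 for Per2 and 0.67 for Per1. Per3 lay between -0.08 and 0.36, a range of 0.44 that is smaller than the largest gap of 0.49 between its arrays.

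The cryptochromes are the partners of the PER proteins in repression. Cry1 was at -0.36, 0.38 and 0.72 in pairs 1, 3 and 5, and at -0.44, 0.10 and -0.14 in pairs 11, 13 and 15. Its arrays had opposite signs in pairs 3, 13 and 15, which leaves pair 5 as the largest ratio seen on both arrays, at 1.03 and 0.41. Cry2 lay between -0.41 and 0.05 at the 16.3 percentile of signal, with arrays up to 0.83 apart.

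The activator genes Arntl and Clock showed no ratio of 0.5 or more in size in any pair, the nearest being Arntl at -0.499 in pair 11. Arntl was at -0.38, -0.30 and -0.02 in pairs 1, 3 and 5, and at -0.50, -0.07 and 0.06 in pairs 11, 13 and 15. Its arrays differed by dye orientation: with the transgenic sample in Cy3 they ran from -1.15 to 0.06, and with it in Cy5 from -0.17 to 0.40. The Cy5 array was the higher one in every pair. In pair 1 they were -1.15 and 0.40, the widest gap of any clock gene. Clock, the partner of Arntl, lay between -0.26 and 0.38 with arrays up to 0.85 apart.

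Nr1d1 and Nr1d2 encode the REV-ERB receptors that repress Arntl. Nr1d1 lay between -0.17 and 0.17, and its arrays had opposite signs in 6 of 6 pairs. Nr1d2 lay between -0.32 and 0.43, with arrays of 0.99 and -0.14 in pair 3. The signals of Nr1d1, Nr1d2 and Arntl stood at the 23.3, 31.4 and 35.3 percentiles of all probes, and those of Per1, Cry1 and Per2 at the 73.2, 77.9 and 78.8 percentiles.

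**Figure D2:**
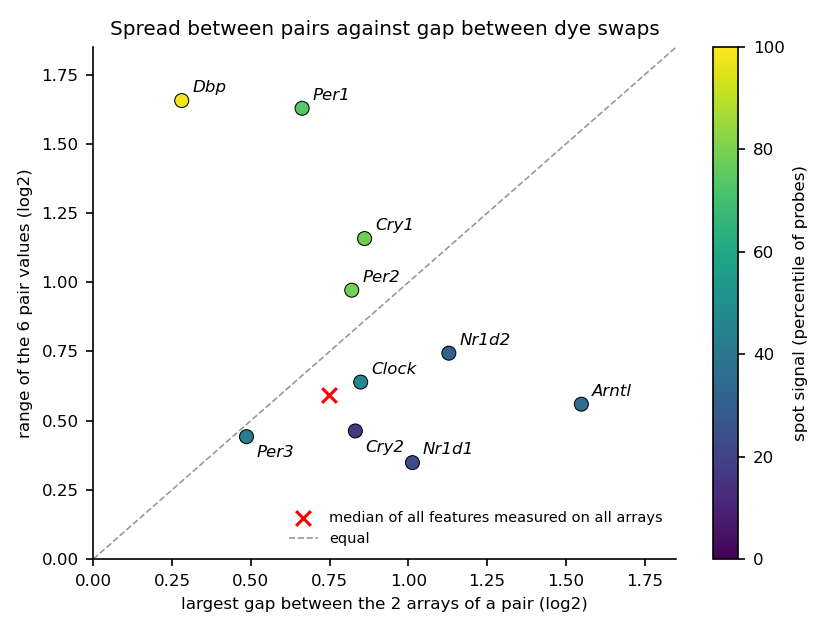
Range of the 6 pair values against the largest gap between the 2 arrays of a pair, both in log2 units, for each clock gene, coloured by the percentile of its spot signal. The gap also holds any fixed offset between the dye orientations, which the pair values do not. Dbp, Per1, Cry1 and Per2 lie above the dashed line of equality and the 6 dimmer members below it; the red cross is the median of the 20356 features measured on all arrays, at 0.59 and 0.75.

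Over all features the median SD between pairs was 0.22, and the median over the clock genes was 0.26. The SD over pairs of Dbp (0.68) and Per1 (0.65) stood at the 96.8 and 96.2 percentiles of the 20356 features measured on all arrays. Per2 and Cry1 followed at the 89.6 and 89.4 percentiles. Arntl was at the 50.1 percentile, and Nr1d1 was lowest of the members at the 14.9 percentile.

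Whether the 2 mice of a pair stood at different clock phases was asked of each pair. A member was counted where its pair value was at least 0.5 in size and both arrays had the same sign, with no test, since a pair is 1 mouse against 1 mouse. In pair 1 these were Per1 and Dbp, both negative, 2 of 10 members against 11.9% of all features. In pair 3 Per1 was the only member, against 13.3% of features. In pair 5 there were 3, with Per2 and Cry1 positive and Dbp negative, against 6.19% of features. Pair 11 had Per1 alone (12.6% of features), pair 13 Dbp alone (4.14%) and pair 15 Per1 alone (8.58%). Over the pairs this made 9 of 60 values, or 15.0%, against 9.45% of the values of all features. The members had the same sign on both arrays in 8, 2 and 5 of 10 cases in pairs 1, 3 and 5, against 47.9%, 53.1% and 49.4% of features, and in 6, 2 and 4 of 10 cases in pairs 11, 13 and 15, against 56.4%, 48.9% and 51.3%.

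Dbp and Arntl, taken as genes of opposite phase, did not have opposite signs on both arrays of any pair. The mean gap of 0.78 between the arrays of Arntl could hide a small opposite change, so these signs do not decide the question of phase. Dbp minus Arntl, a difference of log2 ratios that a phase shift could enlarge, was -1.24, 0.34 and -0.94 in pairs 1, 3 and 5. It was 0.46, -0.83 and -0.06 in pairs 11, 13 and 15. The pairs with a clearly negative difference were the 3 pairs with a negative Dbp, in which Arntl stood at -0.38, -0.02 and -0.07. The sign of Arntl in them depended on the array, with -1.15, -0.43 and -0.33 on the Cy3 arrays of pairs 1, 5 and 13 and 0.40, 0.39 and 0.19 on the Cy5 arrays. The group means were -0.61 ± 0.84 at 4 months and -0.14 ± 0.65 at 10 days (SD, n = 3 pairs each). The Cy5 arrays alone gave -1.26 at 4 months and -0.30 at 10 days, and the Cy3 arrays alone 0.04 and 0.01. Single arrays keep the mean gap between the dye orientations, 0.78 for Arntl against -0.02 for Dbp. Where such a gap is fixed, the pair mean takes it off. Per1 and Dbp, which peak within the same part of the day, were both past the fold in pair 1 only, and Per1 was at 0.04 in pairs 5 and 13, where Dbp was at -0.96 and -0.90. The Cy5 array of Arntl lay above its Cy3 array in every pair, by 0.01 to 1.55. Since this gap was not constant, the pair mean takes off only its fixed part. How small an opposite change of Arntl could be seen in a single pair was not tested.

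Across the 6 pairs Arntl was set against each of the other 9 members. None of the 9 relations passed with an exact permutation test, two-sided and adjusted by Benjamini-Hochberg, where the lowest adjusted p was 0.475. Arntl and Dbp gave Pearson r = 0.01 (exact p = 0.989, adjusted p = 0.989) and Spearman rho = 0.14 (exact p = 0.803, adjusted p = 0.803), and r = 0.07 without pairs 11 and 15, the farthest from the median of Arntl. The sign of r for Arntl and Dbp turned with the dye orientation, at -0.69 on the Cy5 arrays alone (adjusted p = 0.35, exact permutation) and 0.35 on the Cy3 arrays alone (adjusted p = 0.83, exact permutation). Arntl and its partner Clock gave the largest r, 0.78 (exact p = 0.0861, adjusted p = 0.475), with rho = 0.77 (exact p = 0.103, adjusted p = 0.544), which fell to r = 0.34 without pairs 11 and 15. Per3 gave the only negative r with Arntl, -0.75 (exact p = 0.128, adjusted p = 0.475, exact permutation), with rho = -0.49. Without pairs 11 and 15 the r of Per3 was -0.66. On the Cy3 arrays alone it was 0.17 and on the Cy5 arrays alone 0.07. The sign of the relation of Arntl with Dbp was positive among the 4-month pairs and negative among the 10-day pairs. That with Clock was positive in both, and that with Per3 negative in both.

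The comparison over all 6 pairs asks whether the clock genes differ with the transgene whatever the age. Limma called 0 of the 10 members, against 0.0558% of 21513 features, and the ordinary linear model also called 0. At an unadjusted p under 0.05 there was 1 member, Dbp, against 15.0% of features. The median of the members was -0.02 and that of all features -0.01. After Dbp the largest means were Arntl at -0.20 (SE 0.10), Cry2 at -0.15 (SE 0.09) and Per3 at 0.12 (SE 0.08). The other 6 members lay between -0.05 and 0.07.

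At 4 months with 2 copies, limma called 0 members, against 0% of features, and Dbp was again the only member at an unadjusted p under 0.05, against 12.3% of features. The median of the members was 0.00. Cry1 was at 0.25 ± 0.55, Per2 at 0.19 ± 0.55 and Arntl at -0.23 ± 0.19 (SD, n = 3 pairs). Their adjusted p-values in limma lay between 0.513 and 0.724. Single pairs set the first 2 of these means: Cry1 was at 0.55 without pair 1 and 0.01 without pair 5, while Per2 was at 0.51 without pair 1 and fell close to 0 when pair 3 (0.04) or pair 5 (0.02) was left out. At 10 days with 1 copy, limma called 0 members, against 0% of features, with 0 at an unadjusted p under 0.05, against 8.34% of features. The median of the members was -0.11, and Dbp had the largest mean in size, -0.31, which rested on pair 13 and was -0.02 without it.

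The difference between 4 months and 10 days had 0 members called in limma, against 0% of features, and 0 at an unadjusted p under 0.05, against 4.56% of features. Its largest values after Dbp were Cry1 at 0.41 (SE 0.28) and Per2 at 0.40 (SE 0.29), each with an adjusted p of 0.933 in limma. The 95% interval of Cry1 ran from -0.25 to 1.06, a wide bound with 3 pairs per age. The female minus male difference, from 2 female and 4 male pairs, also had 0 members called, against 0% of features. It had 0 members at an unadjusted p under 0.05, against 5.76% of features, and ran from -0.10 for Per3 to 0.42 for Per1. The ordinary linear model called 0 members in each of these 4 comparisons.

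**Figure D3:**
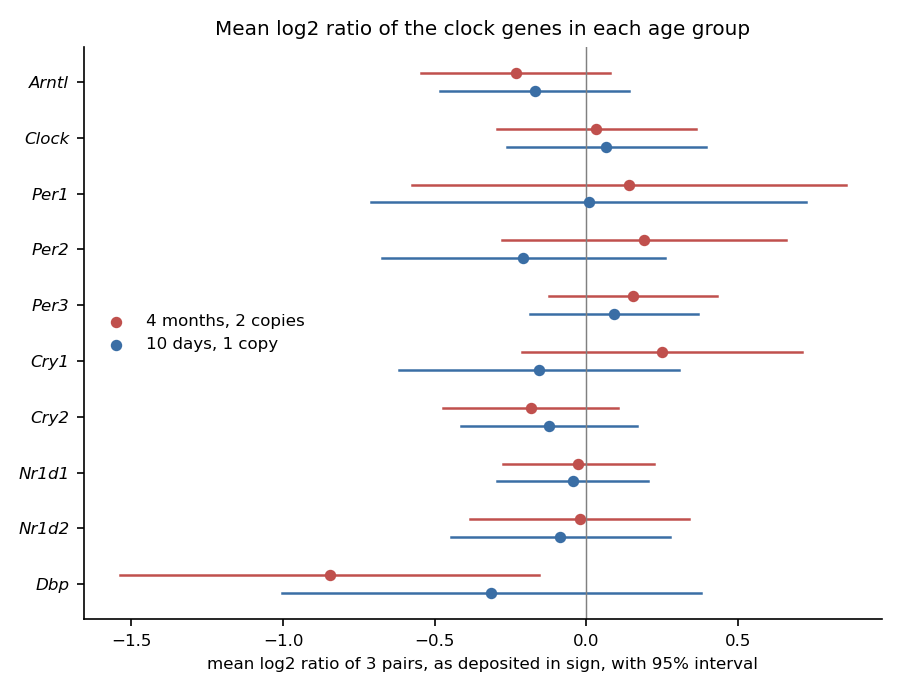
Mean log2 ratio of each clock gene over the 3 pairs of an age group, in the sign in which it was deposited, with the 95% interval from limma; 4 months with 2 copies is drawn above 10 days with 1 copy. The interval of Dbp at 4 months, -1.54 to -0.16, is the only one that leaves out 0, at an adjusted p of 0.338.

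Of 23 other genes of the clock pathway, 20 were on the array, and limma called 0 of them in each of the 5 comparisons. Past the fold in at least 2 pairs were 6 of them, in 1 pair 4 and in none 10, which made 19 of 120 values, or 15.8%, against 9.45% of the values of all features. Among the regulators of D-boxes, Tef, a PAR bZIP relative of Dbp, was at -0.85, 0.70 and 0.15 in pairs 1, 3 and 5 and at 0.09, 0.22 and 0.37 in pairs 11, 13 and 15. Tef was thus negative with Dbp in pair 1 but positive in pairs 5 and 13, where Dbp was negative. Nfil3, which represses through the same D-boxes, was at -0.01, 2.27 and -0.70 in pairs 1, 3 and 5. It was at -1.80, 0.07 and -0.07 in pairs 11, 13 and 15. Nfil3 moved most in pairs 3 and 11, where Dbp was near 0. Hlf, the third PAR bZIP gene, and the E-box repressors Bhlhe40 and Bhlhe41 passed the fold in no pair, and neither did Npas2, a paralogue of Clock.

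Among the outputs, Noct, a rhythmic gene for a phosphatase of NADP cofactors, was at 1.11, 1.31 and -0.15 in pairs 1, 3 and 5 and at -0.42, 0.30 and 0.17 in pairs 11, 13 and 15. Noct had the same sign on both arrays in 6 of 6 pairs, and its 4-month mean of 0.76 (SE 0.27) had an adjusted p of 0.342 in limma. Star, the cholesterol carrier of steroidogenesis and a clock-controlled gene of the adrenal cortex, could not be read, since its arrays lay up to 5.95 apart.

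Among the genes of clock protein turnover, the kinase gene Csnk1d was at 1.41 and 0.61 in pairs 1 and 3 and between -0.31 and 0.16 in the other 4 pairs. Its arrays in pair 1 were 0.51 and 2.32. Csnk1e, the gene of the related kinase, was at -0.73 in pair 3 and -0.74 in pair 15, with a mean over all 6 pairs of -0.35 (SE 0.13, adjusted p = 0.285 in limma). Fbxw11, which encodes an F-box protein that marks PER proteins for breakdown, was at -0.70, 0.04 and 0.17 in pairs 1, 3 and 5. It was at -1.42, 0.50 and 0.62 in pairs 11, 13 and 15, with both arrays of the same sign in every pair.

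Per1 was set beside the immediate early genes, a class that is switched on within minutes by signalling and to which Per1 itself belongs in many cells. Over the 4 pairs in which Per1 was past the fold, 2 of 9 immediate early genes measured there, Egr1 and Dusp1, had the sign of Per1 in every pair, against 5.59% of all features. Among the other clock genes 4 of 9 did so (Cry2, Clock, Dbp and Nr1d2) and 0 had the opposite sign in all 4 pairs, although Dbp was within 0.04 of 0 in 3 of them and Cry2, Clock and Nr1d2 were past the fold in none. Of 9 glucocorticoid response genes, 1 had the sign of Per1 in every pair, which was again Dusp1, and 1 had the opposite sign. Egr1 was at -0.97, 1.47 and -1.28 in pairs 1, 3 and 5 and at -1.50, 1.03 and 1.28 in pairs 11, 13 and 15. Dusp1 was at -0.72, 0.04 and -0.89 in pairs 1, 3 and 5 and at -1.15, 0.85 and 0.62 in pairs 11, 13 and 15. The arrays of Dusp1 in pair 3 were 0.10 and -0.01, so its sign there, counted above as that of Per1, was not repeated. In pairs 5 and 13, where Egr1 lay at -1.28 and 1.03, Per1 was at 0.04 in both. Fos was at -2.70 in pair 11, its lowest, and at 0.67 in pair 13, its highest. Egr1, Dusp1 and Fos were named after their values were seen. The part of acute signalling in the Per1 values was not tested. The median of the 10 glucocorticoid response genes, Per1 and Dusp1 among them, lay between -0.19 and 0.21 in the 6 pairs.

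**Figure D4:**
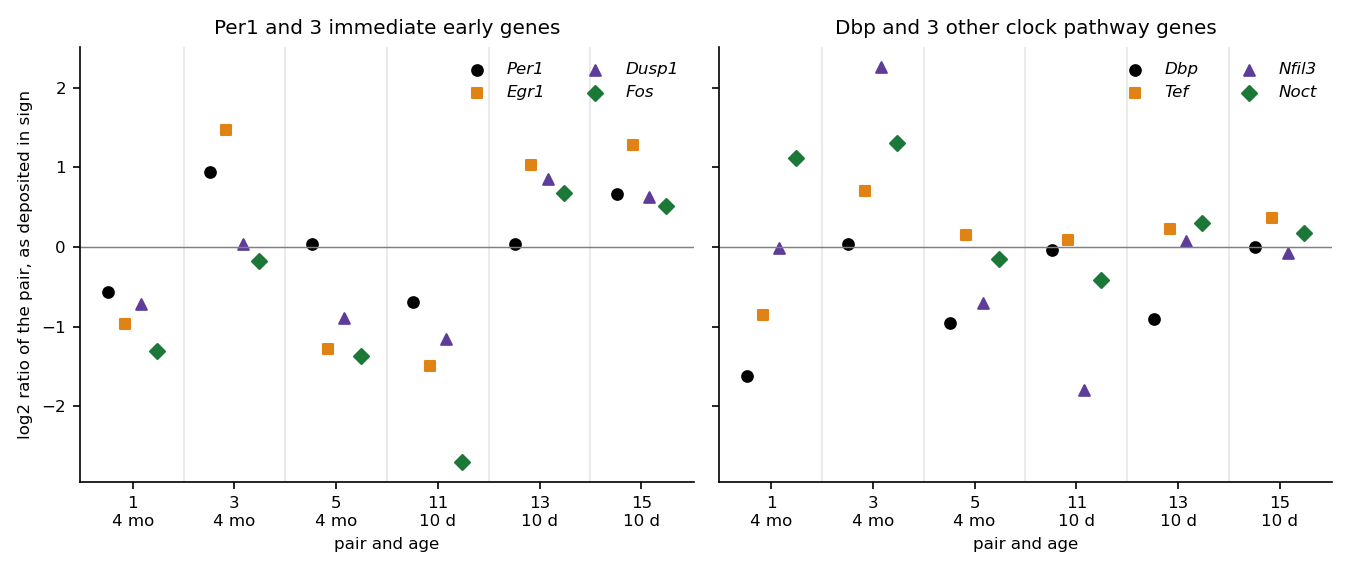
Log2 ratio of each pair, in the sign in which it was deposited, for Per1 with Egr1, Dusp1 and Fos (left) and for Dbp with Tef, Nfil3 and Noct (right). Per1 and Egr1 lie on the same side of 0 in pairs 1, 3, 11 and 15, while Nfil3 reaches 2.27 in pair 3 and -1.80 in pair 11, where Dbp is near 0.

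The genes whose pair values ran most like those of Dbp were sought among 1126 named genes with the same sign on both arrays of every pair, as a description over 6 pairs. The highest Pearson r with Dbp were those of Crat (0.99), Vip (0.96), Cox7c (0.93), Hsd17b11 (0.93) and Samd14 (0.92). Crat, which encodes a carnitine acetyltransferase, was at -0.27, 0.22 and -0.11 in pairs 1, 3 and 5 and at 0.26, -0.05 and 0.27 in pairs 11, 13 and 15, a smaller span than that of Dbp. Hsd17b11, a dehydrogenase gene, had the widest span of the 5, from -0.78 in pair 1 to 0.62 in pair 3. The lowest r were those of Abcb8 (-0.95), Wdr26 (-0.95), Scn2a (-0.92), Gpsm2 (-0.91) and Spsb1 (-0.89). Since Dbp falls into 3 pairs near 0 and 3 well below it, r is set mainly by that division. Dbp itself had the same sign on both arrays in 3 of 6 pairs, so genes near 0 in the same pairs could be left out by this filter. Vip was negative in every pair, at -0.76 to -0.44, and Samd14 positive in every pair, at 0.22 to 0.55.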

How the data were processed

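Adrenal RNA of 6 transgenic and wild-type pairs was measured on 12 two-colour arrays of 25344 spots. The authors' value table was used, which holds a deposited log2 ratio of both channels for each spot. The sources name no scanner, background subtraction or normalization, and array medians of -0.68 to 1.50 show that the deposited log2 ratios were not centred. Values of the 6 arrays whose Cy3 channel held the transgenic sample could be written as log2 of a quotient of whole numbers up to 65535, which gave the spot signal (75th percentile of the geometric mean, up to a common factor). All arrays with the same dye orientation also share a date label, so orientation and that date cannot be told apart.

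A loess curve of the ratio on signal was taken off within every array (span 0.3, limma loessFit), a step added because the values were not centred. Symbols were updated through gene IDs, probes of a gene averaged, and arrays of a pair averaged where both had a value. Features with at least 2 of 3 pairs per group were tested in limma 3.58.1 (R 4.3.3) with a mean per group, or with sex added for the female minus male difference. There were 4 residual and 3.85 prior degrees of freedom, and two-sided p-values received the Benjamini-Hochberg adjustment over all features, with a threshold of 0.05. P-values measure the spread between these pairs. Correlations over pairs used exact permutation of 6 values (scipy 1.17.1). The procedure was tested on simulated data. Named were all members, other clock pathway genes past the fold in 2 or more pairs, and the 5 genes on each side by r with Dbp; others are said to be named after their values were seen or stand for a role. Alternatives were median centring, no correction, span 0.5, an ordinary model, full measurement, bright spots left out, a sex term, single arrays, a fold of 1 and each pair left out. The members and lists were chosen with earlier results of these data known.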

Additional observations from a re-analysis of the deposited data

How the results depend on the processing

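Limma called 0 clock genes under each alternative in the comparisons at 4 months, at 10 days, between the ages and between the sexes, and without any single pair. Over all 6 pairs the count was 0, apart from 2 (Clock at 0.36 and Per3 at 0.44) on values as deposited, where the pair medians of all features were shifted by up to 0.49 and 5964 features were called. Over all 6 pairs the lowest adjusted p of Dbp was 0.0817 on values as deposited and 0.181 under the other settings, without pair 3, where its mean was -0.80; at 4 months its mean was -0.46 without pair 1 and -1.29 without pair 3, and at 10 days -0.02 without pair 13. Calls over all features were 12 over all 6 pairs, 14 at span 0.5, 1 in the ordinary model, 0 with median centring or a sex term, and 0 to 15 without a single pair. In the other comparisons, with 0 calls, values as deposited gave 2548 at 4 months, 18 at 10 days, 16 between the ages and 79 between the sexes; there were 5 at 4 months without pair 5, 1 at 10 days without pair 11, and between the sexes 1 in the ordinary model and 3 without pair 15. The number of members past the fold in pairs 1, 3, 5, 11, 13 and 15 (2, 1, 3, 1, 1 and 1) changed by over 1.5 times in some settings. With a fold of 1 it was 1 in pair 1 and 0 in the others. On values as deposited it was 1 in pair 1, 5 in pair 3 and 0 in pair 11, and with median centring 2 in pair 11. On the Cy3 arrays alone it was 5 in pair 3 and 5 in pair 11, and on the Cy5 arrays alone 3 in pair 3 and 2 in pair 15; single arrays drop the demand for the same sign, and the cause was otherwise not tested. Dbp minus Arntl moved by less than 1 SD in all 5 alternatives of each age group, though its means were -1.26 at 4 months and -0.30 at 10 days on the Cy5 arrays alone and 0.04 and 0.01 on the Cy3 arrays alone, and 0 of 9 relations with Arntl passed in any of 4 alternatives. Dim spots, above all of Arntl, Cry2, Nr1d1 and Nr1d2, limit what these arrays can show. No paired analysis was possible because the age groups share no mice or replicate numbers.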
